A study of Sus scrofa with 24 samples.

Results

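TINAG, PLB1 and DUOX1 are 3 of the 13463 genes counted in pig liver, and they were selected on their read counts, which were much lower with Sustanon, a mixture of testosterone esters, than in control pigs. The study listed them in its own panel from a heatmap of these same libraries, so the difference between Sustanon and control pigs is a description here and carries no test. All 3 genes passed the filter on low counts, as did 8754 genes in all.

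Liver RNA was sequenced from 24 hybrid grower pigs (Large White, Landrace and Duroc), with 1 library per pig. Sustanon was given at 4 mg/kg to 3 castrated boars, 3 sows and 2 uncastrated boars, and Myodin, a preparation of the nandrolone ester nandrolone laurate, was given at 5 mg/kg to 2 castrated boars, 3 sows and 3 uncastrated boars. Each treated pig had 5 intramuscular injections between day 94 and day 110 of the trial and was slaughtered 4 days later, and the controls were 3 castrated boars, 3 sows and 2 uncastrated boars. In a preliminary phase before this the treated groups had also received a single injection of the same preparation, with a lower dose for Myodin. Sow is the word of the sample labels, and the study lists these females as gilts, which have had no litter yet. Castrated boars and sows were joined as testis-free pigs, because neither has testes. The group of uncastrated boars is defined by the label alone, since serum testosterone was not alike in all of these boars and is not analysed here. Each tested group had its own pen and the controls had a separate room, so treatment and housing cannot be told apart.

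The 3 genes are minor transcripts of liver. TINAG encodes tubulointerstitial nephritis antigen, a basement membrane glycoprotein related to the papain-like proteases and best known from the kidney. PLB1 encodes phospholipase B1, a membrane-bound enzyme of the intestinal brush border that removes acyl chains from phospholipids and can release retinol from retinyl esters. DUOX1 encodes dual oxidase 1, an NADPH oxidase that makes hydrogen peroxide outside the cell and is known from thyroid and airway epithelium. To leave the endoplasmic reticulum, a dual oxidase needs a maturation factor, and the genes for DUOX1, DUOX2 and their factors DUOXA1 and DUOXA2 lie side by side.

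On Sscrofa11.1, RefSeq places TINAG (ENSSSCG00000001484) at chr7:26448612-26522993, PLB1 (ENSSSCG00000034756) at chr3:110605923-110741236 and DUOX1 (ENSSSCG00000004675) at chr1:126572533-126603084. A long noncoding RNA, LOC106509865, overlaps 1 end of PLB1, and whether counting used strand is not given in the sources used here. DUOX1 and DUOX2 are paralogs, so reads that match both could have been split between them. Real-Time PCR primer pairs designed for these genes are shown because they are the sequences by which each transcript was recognised in that assay. Each is written 5′ to 3′ in lower case, the forward primer first and then the reverse.
TINAG forward: aaaactgcaattcctgcacatg
TINAG reverse: ggcatacgtgctgggaaca
PLB1 forward: gcaggccagtgttttctgtaact
PLB1 reverse: tccaacctggccagctctt
DUOX1 forward: ttctcccaggtgctagacattga
DUOX1 reverse: cccgcaccttctgtgatga
The primers are between 19 and 23 bases long, and their G and C content runs from 40.9% in the TINAG forward primer to 57.9% in each of the reverse primers.

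Libraries held between 9267780 and 14017276 counted reads. The Y-linked gene EIF1AY had 0 to 3 counts in 7 of the 9 sows and 327 to 564 in 14 of the 15 males. It had 476 and 434 counts in control sows 16 and 18 and 1 count in control castrated boar 15, so these 3 libraries go against their labelled sex. All 3 are testis-free controls by label, and values without them are also given for the main differences. The liver origin was clear from the hepatocyte markers, whose summed level was 81330 to 188700 TPM over all libraries.

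Per length, TINAG was the most abundant of the 3 in testis-free control pigs, with a mean level of 4.96 TPM, above 56.2% of all genes in the table. PLB1 had a mean level of 3.06 TPM, above 51.6% of genes, and DUOX1 a mean level of 1.3 TPM, above 44.7%. Over all 24 libraries TINAG was supported by 865 reads, PLB1 by 1010 and DUOX1 by 395. TINAG had 0 reads in 3 libraries and DUOX1 in 2, while PLB1 had at least 2 reads in each. At such counts a single library is measured with wide counting error, so the spread between pigs is the measure used throughout.

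TINAG reached 42, 44 and 105 reads in the 3 control sows and 21, 59 and 122 in the 3 control castrated boars. As normalised CPM (reads scaled to library size), the 6 testis-free controls ran from 2.23 to 13.9 with a median of 5.18. The 2 control uncastrated boars had 1.68 and 1.41 CPM, from 19 and 14 reads. Both boars were thus below each of the 6 testis-free controls.

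With Sustanon, TINAG was at 14, 15 and 5 reads in castrated boars, 7, 0 and 10 in sows, and 0 and 0 in uncastrated boars. The 6 testis-free pigs ran from 0 to 1.62 CPM with a median of 0.811, and none reached the lowest testis-free control. The pick favoured such a gap, and the share of all genes that have it was not counted. A count of 0 allows a level of up to 0.287 CPM in sow 5, 0.257 CPM in uncastrated boar 19 and 0.283 CPM in uncastrated boar 20 (3 reads per library, counting error only). On Myodin the testis-free pigs kept the control range, with 3.74 and 4.04 CPM in castrated boars and 6.36, 11.2 and 7.44 CPM in sows. The 3 uncastrated boars on Myodin had 1.77, 0.189 and 0.391 CPM, below each of those 5 pigs.

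Among testis-free pigs on control or Myodin, PLB1 had a wider spread than TINAG or DUOX1. Control sows had 55, 91 and 161 reads and control castrated boars 161, 81 and 2, which as CPM ran from 0.212 to 16.2 with a median of 7.81. The pig with 2 reads was castrated boar 15, whose Y-linked reads go against its label. The 2 control uncastrated boars had 1.15 and 1.41 CPM, below 5 of the 6 testis-free controls.

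With Sustanon, PLB1 had 17, 4 and 2 reads in castrated boars, 8, 3 and 13 in sows, and 9 and 7 in uncastrated boars. The testis-free pigs ran from 0.176 to 1.42 CPM with a median of 0.646, below the same 5 controls. On Myodin the castrated boars lay at opposite ends, with 0.178 and 14.2 CPM, and the sows had 3.13, 6.15 and 5.32 CPM. The uncastrated boars on Myodin had 0.307, 0.660 and 0.195 CPM, which is lower than 4 of the 5 testis-free pigs on Myodin.

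DUOX1 was the most even of the 3 in controls. Control sows had 26, 64 and 30 reads and control castrated boars 44, 24 and 29, from 2.62 to 4.49 CPM with a median of 2.93. Control uncastrated boars had 0.884 and 1.01 CPM, from 10 reads each, and did not overlap with the testis-free controls.

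With Sustanon, DUOX1 was at 4, 5 and 1 reads in castrated boars, 0, 3 and 6 in sows, and 4 and 4 in uncastrated boars. The testis-free pigs ran from 0 to 0.540 CPM with a median of 0.310, all of them below the lowest control of any group. As for TINAG, the pick favoured this, and the share of all genes without overlap here was not counted. The sow with 0 reads could have had up to 0.322 CPM. On Myodin the castrated boars had 0.890 and 0.993 CPM and the sows 3.88, 1.79 and 1.44 CPM. The 3 uncastrated boars on Myodin had 2.61, 0.189 and 0 CPM, so that pig 22 lay among the testis-free pigs and the others lay with the Sustanon group.

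**Figure D1:**
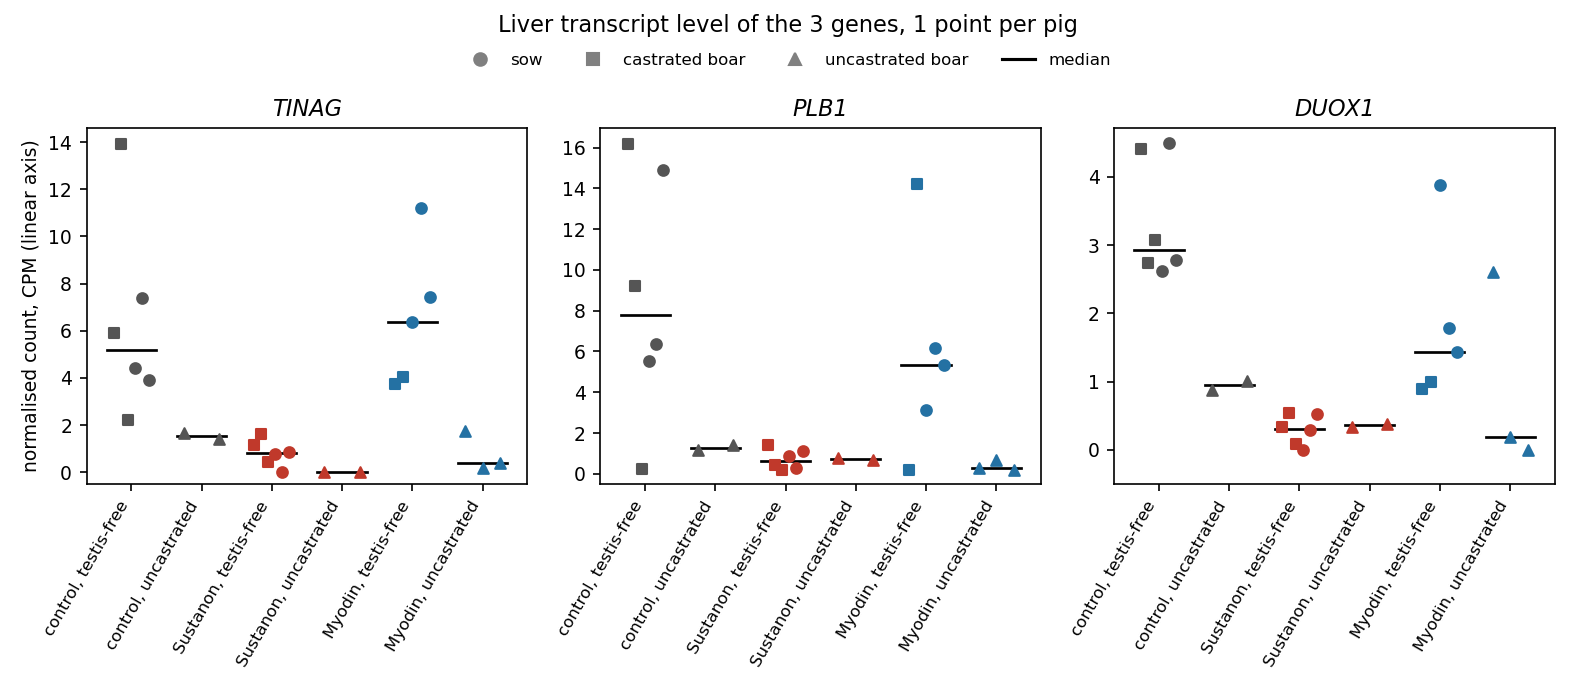
Normalised counts (CPM, linear axis, a scale per gene) of TINAG, PLB1 and DUOX1 in each of 24 pigs by treatment and testes, with symbols for labelled sex and a line at each group's median. The medians of the testis-free control and Myodin pigs stand above those of the Sustanon pigs and of the uncastrated boars for each gene, and for PLB1 1 testis-free pig of each of these 2 groups lies near 0.

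Ordered by mean log2 CPM, the testis-free control and Myodin pigs took the top places for each gene and control uncastrated boars came next, while the order of the lowest groups differed between the genes. For TINAG the order was Myodin testis-free (2.64 ± 0.63, SD, n = 5), control testis-free (2.47 ± 0.86, n = 6), control uncastrated (0.78 ± 0.16, n = 2), Sustanon testis-free (-0.31 ± 1.16, n = 6) and Myodin uncastrated (-0.42 ± 1.24, n = 3), with Sustanon uncastrated last at 0 reads. Of these neighbours, control testis-free and control uncastrated did not overlap. The last pair did not overlap in reads. However, 0 reads allow up to 0.257 and 0.283 CPM in the Sustanon boars, and Myodin boar 23 had 0.189 CPM. For PLB1 the highest group was control testis-free (2.51 ± 1.98, n = 6) and the lowest Myodin uncastrated (-0.89 ± 0.59, n = 3), and only control uncastrated and Sustanon uncastrated were neighbours without overlap, with 2 pigs in each. For DUOX1 the highest group was control testis-free (1.79 ± 0.34, n = 6) and the lowest Sustanon testis-free (-1.22 ± 0.79, n = 6), and each group overlapped with the next.

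For testis-free pigs, the fitted log2 fold change of Sustanon against control was -2.95 ± 0.55 (SE) for TINAG, -3.57 ± 0.76 for PLB1 and -3.45 ± 0.63 for DUOX1. These correspond to levels 7.73-fold, 11.9-fold and 10.96-fold lower. By edgeR's quasi-likelihood test with a Benjamini-Hochberg adjusted p under 0.05, which is the call used throughout, 2.02% of all genes were lower in this comparison. Over all 8 Sustanon and all 8 control pigs, the log2 fold changes were -3.07 ± 0.74 for TINAG, -3.23 ± 0.85 for PLB1 and -3.10 ± 0.58 for DUOX1, and 1.55% of all genes were called lower. Both sets of values describe how the genes were picked. Without the 3 control libraries that go against their labelled sex, the testis-free differences were -3.47, -3.84 and -3.67, and those over all pigs -3.31, -3.22 and -3.08.

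In uncastrated boars the comparison rests on 2 pigs on each side. PLB1 differed by -0.82 ± 1.41 and DUOX1 by -1.37 ± 1.12 on the log2 scale, so the SE was larger than the difference for PLB1 and close to it for DUOX1. TINAG had no reads in either Sustanon boar, and its level there was at least 5.73-fold lower than the mean of the 2 control boars (3 reads per library as the limit, a mean of 0.270 CPM). In bulk liver, fewer cells of a type and less RNA per cell cannot be told apart.

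The Myodin libraries took no part in the comparison that picked the genes, although they were in the study's heatmap. Among these 8 pigs, the question was whether boars with testes differ from testis-free pigs. TINAG was lower in uncastrated boars, at a mean log2 fold change of -2.98 ± 0.72 or 7.91-fold, with an edgeR adjusted p of 0.0362. This call was made in 6 of 9 other settings, and the highest adjusted p, 0.158, came with only the groups compared. PLB1 differed by -3.89 ± 1.10, with an adjusted p of 0.0646, and DUOX1 by -0.84 ± 0.70, with an adjusted p of 0.533. That is 1 call among the 3 genes, against 0.902% of all genes called lower. All 3 boars were below all 5 testis-free pigs for TINAG alone of the 3 genes, and the same held for 3.76% of all genes.

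An exact two-sided permutation test of log2 CPM over these 8 pigs gave p = 0.0179 for TINAG, the smallest value the design allows. The exact p was 0.125 for PLB1 and 0.161 for DUOX1. The TINAG call was lost, with an adjusted p of 0.0577 to 0.165, without any 1 of sow 10, sow 11, sow 12, uncastrated boar 23 or uncastrated boar 24, with log2 fold changes between -2.99 and -2.54 in these 5 fits. Without uncastrated boar 22 the DUOX1 difference was -4.05, with an adjusted p of 0.00777, and without castrated boar 8 the PLB1 difference was -4.20, with an adjusted p of 0.0233. Without control libraries 15, 16 and 18, the differences were -2.98 for TINAG (adjusted p = 0.0361), -3.88 for PLB1 (adjusted p = 0.0395) and -0.85 for DUOX1 (adjusted p = 0.566). Without control castrated boar 15 alone, which is not among the pigs compared but is in the shared fit, PLB1 had an adjusted p of 0.0334.

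In control pigs the same comparison is a description with no test, because these controls also served to pick the genes and high testis-free controls favoured the pick. Uncastrated boars differed from testis-free pigs by -2.01 ± 0.78 for TINAG, -2.77 ± 1.11 for PLB1 and -1.82 ± 0.83 for DUOX1 on the log2 scale. Over all genes, edgeR called 0.743% lower in this comparison. TINAG and DUOX1 did not overlap between the 2 boars and the 6 testis-free controls, a pattern shared by 9.65% of all genes. Without control libraries 15, 16 and 18 the differences were -2.54, -3.04 and -2.03.

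Myodin itself was compared with control in testis-free pigs. The controls are among the pigs that picked the genes, which favours a level below theirs, so the values are a description with no test. TINAG differed by 0.06 ± 0.49, PLB1 by -0.58 ± 0.66 and DUOX1 by -0.93 ± 0.54 on the log2 scale. Over all genes, edgeR called 0.0228% lower in this comparison. Sow 10 was the highest of the testis-free Myodin pigs for DUOX1, with 3.88 CPM, and without this sow the fitted DUOX1 difference was -1.40. With 1 library left out, TINAG ran from -0.22 to 0.45, with a change of sign in 4 of 11 fits, and PLB1 from -1.24 to -0.27. Without control libraries 15, 16 and 18, the differences were -0.47 for TINAG, -0.85 for PLB1 and -1.14 for DUOX1. Sustanon and Myodin differed in dose, so their values stand side by side without a test, and for TINAG they were -2.95 with Sustanon and 0.06 with Myodin.

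In uncastrated boars, Myodin differed from control by -0.91 ± 0.88 for TINAG, -1.70 ± 1.36 for PLB1 and 0.05 ± 0.90 for DUOX1, on the log2 scale, again with controls that picked the genes and so with no test. In this comparison edgeR called none of the 8754 genes, while 783 had an unadjusted p under 0.05. The effect of Myodin in uncastrated boars minus that in testis-free pigs was -0.97 ± 1.01 for TINAG, -1.12 ± 1.51 for PLB1 and 0.98 ± 1.06 for DUOX1. This difference takes the same controls as its base and is a description too, and over all genes edgeR called 0.08% lower. Each SE was larger than the difference or close to it.

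On Sustanon, values of the 2 uncastrated boars and the 6 testis-free pigs are a description, because these pigs served to pick the genes for low counts. Both boars had 0 reads of TINAG, as did sow 5, while the other 5 testis-free pigs had 0.440 to 1.62 CPM. PLB1 and DUOX1 overlapped between these groups.

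Castrated boars and sows were joined above, and the exact permutation test was used to compare them within each treatment. With 3 pigs against 3, or 2 against 3, it cannot give a p below 0.1, and across the 9 comparisons p ranged from 0.1 to 0.9. The lowest value was for TINAG on Myodin. There the means of castrated boars and sows were 2.03 and 3.05 log2 CPM for TINAG, and 0.17 and 1.23 for DUOX1. How many of all genes part these pigs as far was not counted. In controls the castrated boars had a mean of 2.57 and the sows 2.39 log2 CPM of TINAG. For PLB1 these means were 1.98 and 3.05, and for DUOX1 1.82 and 1.76. Of these 6 controls, 3 go against their labelled sex, and the others are castrated boars 13 and 14 and sow 17, too few for a test. TINAG was at 5.92 and 13.9 CPM in these castrated boars and 7.37 CPM in the sow, and DUOX1 at 4.42 and 2.74 CPM and at 4.49 CPM.

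**Figure D2:**
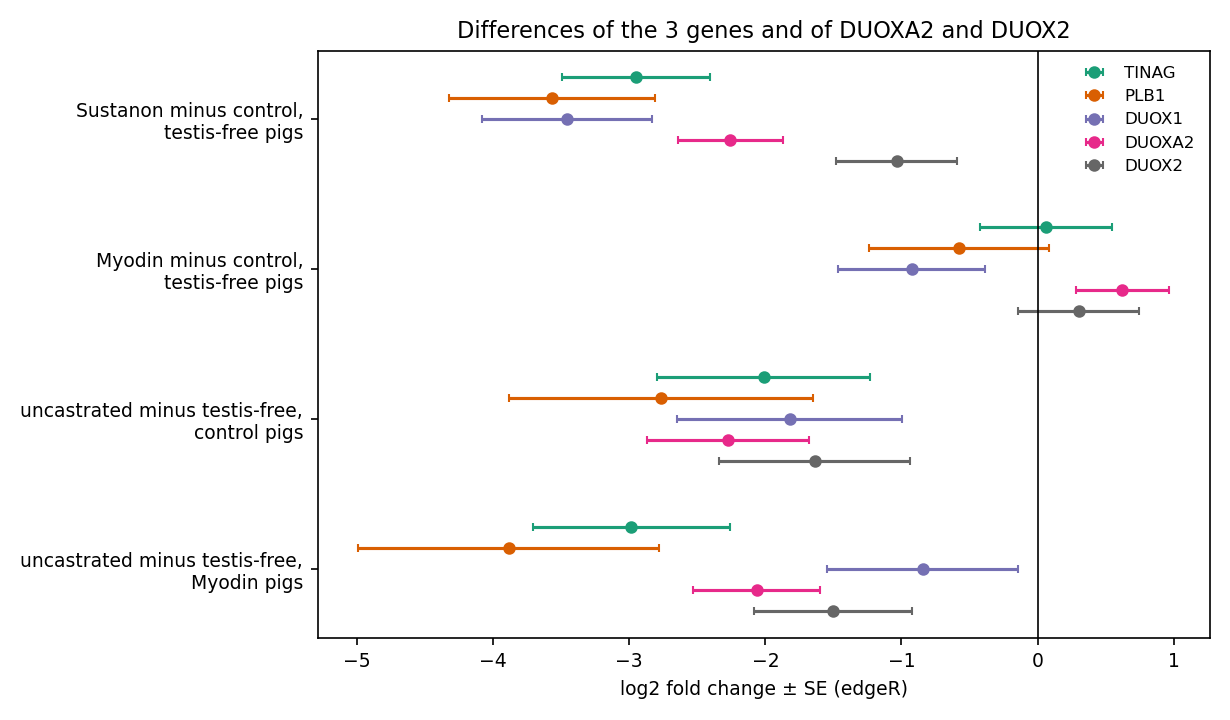
Log2 fold change with its SE (edgeR) of TINAG, PLB1, DUOX1, DUOXA2 and DUOX2 in 4 comparisons, with 0 as the vertical line. The Myodin differences in testis-free pigs run from -0.93 for DUOX1 to 0.62 for DUOXA2, while every point of the other 3 comparisons is below 0.

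DUOX1 sits in a cluster of genes, and its neighbours were read in the same fits. DUOXA2, the maturation factor of DUOX2, begins 13547 bases beyond the end of DUOX1. Its counts in testis-free controls were 21 to 48, or 2.22 to 4.84 CPM, and 2 to 10 with Sustanon, or 0.191 to 0.881 CPM. DUOXA2 fell by 2.26 ± 0.39 on the log2 scale, with an edgeR adjusted p of 0.00149. It was called in each of the 12 fits that left out 1 pig. On Myodin, DUOXA2 had 3.65 and 4.54 CPM in castrated boars and 3.56, 9.13 and 2.54 CPM in sows, against 1.996, 0.377 and 0.879 CPM in uncastrated boars.

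DUOXA2 fell by 2.06 ± 0.47 in the Myodin boars relative to testis-free pigs, with an edgeR adjusted p of 0.0240, and the call held in 5 of the 8 fits that left out 1 pig. In control pigs the boar difference of DUOXA2 was -2.28 ± 0.60, with an adjusted p of 0.0551. Without control libraries 15, 16 and 18, these boar differences of DUOXA2 were -2.07 on Myodin (adjusted p = 0.0361) and -2.21 in controls (adjusted p = 0.153). In testis-free pigs Myodin differed from control by 0.62 ± 0.34 for DUOXA2, with an adjusted p of 0.560. DUOXA2 is not one of the genes that were picked, whereas DUOX1 is. The pick favoured a lower DUOX1 with Sustanon and in control boars, so signs shared there by both genes are a description.

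DUOX2, the paralog of DUOX1, lies 17384 bases away. It had 2.62 to 6.60 CPM in testis-free controls and 1.32 to 2.92 CPM with Sustanon, and these ranges overlap. Its log2 differences were -1.04 ± 0.45 for Sustanon in testis-free pigs, -1.51 ± 0.58 for boars on Myodin and -1.64 ± 0.70 for control boars. The edgeR adjusted p-values of DUOX2 were 0.200, 0.161 and 0.290, so it was not called. DUOXA1, the maturation factor of DUOX1 itself, had at most 1 read in a library and was not tested.

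Farther out, SORD, the sorbitol dehydrogenase of the polyol pathway, lies 56114 bases from DUOX1. It rose with Sustanon in testis-free pigs by 0.85 ± 0.15 on the log2 scale, with an edgeR adjusted p of 0.00244, from a mean of 1554 CPM to 2804 CPM. SHF, 1876 bases from DUOX1 on the other side, differed by -0.24 ± 0.24 with an adjusted p of 0.652. In all, 15 other genes within 500 kb of DUOX1 were tested, and DUOXA2 and SORD were the ones called in this comparison, in opposite directions, beside 2.02% of all genes called lower and 3.37% called higher. Without control libraries 15, 16 and 18, DUOXA2 differed by -2.19 (adjusted p = 0.0222) and SORD by 0.86 (adjusted p = 0.0429). TERB2, 135436 bases from DUOX1, differed by -0.99 ± 0.37 with Sustanon and by -1.27 ± 0.48 in boars on Myodin, about the size seen for DUOX2, with edgeR adjusted p-values of 0.128 and 0.154.

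None of the 2 tested neighbours of TINAG and the 5 of PLB1 within 500 kb was called with Sustanon in testis-free pigs, where 2.02% of all genes were called lower and 3.37% higher. MLIP, 39809 bases from TINAG, differed by 0.17 ± 0.16 with Sustanon in testis-free pigs, and LRRC1 by -0.04 ± 0.30. Within 500 kb of PLB1, the nearest tested gene was FOSL2, a subunit of the AP-1 transcription factor, at -0.22 ± 0.26 and 79167 bases away. The edgeR adjusted p-values were 0.623 for MLIP, 0.969 for LRRC1 and 0.733 for FOSL2.

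**Figure D3:**
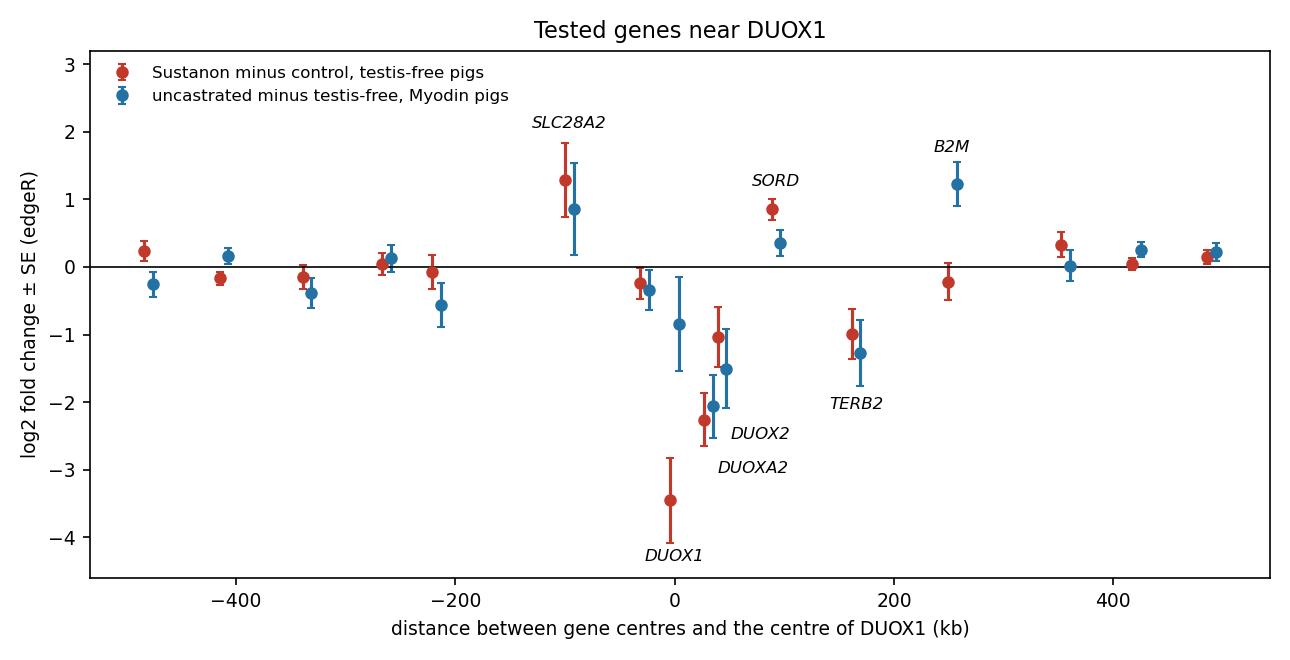
Log2 fold change with its SE (edgeR) of the 16 tested genes within 500 kb of DUOX1, against the distance of each gene's centre from that of DUOX1 in kb, for Sustanon in testis-free pigs and for boars against testis-free pigs on Myodin. DUOX1, DUOXA2 and DUOX2 lie below 0 in both comparisons, as does TERB2 at -0.99 and -1.27, and SORD stands at 0.85 with Sustanon.

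The other genes of each pathway were read from lists compiled with earlier results of these data known. Of 10 further tested genes for NADPH oxidases and peroxidases, DUOXA2 was the 1 call, lower, with Sustanon in testis-free pigs, beside 2.02% of all genes, and the median log2 fold change was -0.04 against -0.01 over all genes. The phagocyte oxidase subunits CYBA and NCF1 differed by -0.01 ± 0.16 and -0.03 ± 0.30. The list for hydrogen peroxide removal also holds the superoxide dismutases SOD2 and SOD3, which form it rather than remove it. Of the 10 tested genes in this list, 2 were called and both rose, while over all genes 3.37% were called higher. They were GPX4, the glutathione peroxidase of membrane lipids, at 0.46 ± 0.09 (edgeR adjusted p = 0.00286) and PRDX1, a peroxiredoxin, at 0.93 ± 0.19 (adjusted p = 0.00422). Catalase (CAT), the peroxisomal enzyme, differed by -0.18 ± 0.19, with an adjusted p of 0.685. With control libraries 15, 16 and 18 left out, GPX4 differed by 0.42 (adjusted p = 0.0576) and PRDX1 by 0.93 (adjusted p = 0.0657), and neither was called.

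The list of phospholipases and lysophospholipases also holds the lysophospholipid acyltransferases LPCAT2, LPCAT3 and LPCAT4. Of its 19 tested genes other than PLB1, 1 rose and 1 fell with Sustanon in testis-free pigs, against 3.37% and 2.02% of all genes. The median log2 fold change of the 19 was 0.01. PLBD1, a lysosomal phospholipase B-like protein, fell by 0.80 ± 0.20 (edgeR adjusted p = 0.0182), from 19.7 ± 2.39 to 11.3 ± 3.29 CPM (SD, n = 6 in each). PNPLA3, a lipid droplet acylhydrolase that also acts on retinyl esters, rose by 2.28 ± 0.58 (adjusted p = 0.0249), from 1.83 ± 0.475 to 8.97 ± 12.1 CPM, so its spread with Sustanon was larger than its mean. PNPLA3 was also higher in control uncastrated boars, by 3.22 ± 0.70 (adjusted p = 0.0271). None of these was called without control libraries 15, 16 and 18. PLBD1 was then at -0.85 (adjusted p = 0.101). PNPLA3 was at 2.39 (adjusted p = 0.167) for Sustanon and at 3.33 (adjusted p = 0.148) in control boars. With all libraries kept, PNPLA3 differed by 0.43 ± 0.72 over all Sustanon and control pigs (edgeR adjusted p = 0.815). In uncastrated boars it differed by -2.22 ± 0.95 with Sustanon (edgeR adjusted p = 0.419).

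Of 9 tested retinoid genes, 2 were called higher and 2 lower with Sustanon in testis-free pigs, against 3.37% and 2.02% of all genes. RDH10 and RDH16, which oxidize retinol, rose by 0.52 ± 0.15 and 0.70 ± 0.15 (edgeR adjusted p = 0.0350 and 0.00661), and RDH11, a retinal reductase, and DGAT1, an acyltransferase that can form retinyl esters, fell by 0.89 ± 0.26 and 0.62 ± 0.17 (adjusted p = 0.0473 and 0.0312). The median of the 9 was 0.40. These 4 differences kept their sign and none was called without control libraries 15, 16 and 18, with adjusted p-values of 0.194 for RDH10, 0.110 for RDH16, 0.129 for RDH11 and 0.162 for DGAT1. LRAT, the main retinyl ester synthase of stellate cells, differed by -0.50 ± 0.25, with an adjusted p of 0.283.

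Basement membrane genes other than TINAG gave 0 calls among 13 by edgeR with Sustanon in testis-free pigs, where 2.02% of all genes were called lower and 3.37% higher, with a median log2 fold change of 0.03. The closest relative of TINAG, TINAGL1, differed by -0.48 ± 0.19, with an adjusted p of 0.157. Over all Sustanon and control pigs, 2 of the 13 were called lower, beside 1.55% of all genes, TINAGL1 at -0.53 ± 0.16 (edgeR adjusted p = 0.0483) and LAMB1, a laminin chain, at -0.78 ± 0.21 (adjusted p = 0.0340). Without control libraries 15, 16 and 18 no gene was called over all pigs. Of 6 papain family cathepsins, CTSO alone was called higher, beside the same 3.37% of all genes, at 0.997 ± 0.292 with an adjusted p of 0.0470, and the median of the 6 was -0.08. CTSO differed by 1.18 without control libraries 15, 16 and 18, with an adjusted p of 0.153. For boars against testis-free pigs on Myodin, 2 of the 67 tested genes in the same 6 lists were called lower besides the picked genes, against 0.902% of all genes. They were DUOXA2 and PRDX4, a peroxiredoxin of the endoplasmic reticulum that fell by 0.77 ± 0.18 (adjusted p = 0.0313, and 0.0519 without control libraries 15, 16 and 18).

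Markers of cells that could carry the 3 genes were read beside them. Of 10 kidney tubule markers, 8 were in the table and none passed the count filter, AQP2 was at 0 in all 24 libraries, and the summed level was 0 to 0.19 TPM in testis-free controls and 0.03 to 0.55 TPM with Sustanon. Of 6 intestinal epithelium markers in the table, FABP2, MUC2 and CDX1 had a median of 0 reads, and the summed level, 6666 to 12710 TPM in testis-free controls and 3763 to 12710 TPM with Sustanon, was mostly APOA4. The 3 bile duct markers summed to 25.8 to 39.6 TPM in testis-free controls and 16.01 to 44.35 TPM with Sustanon.

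The 7 leukocyte and Kupffer cell markers summed to 419.7 to 529.6 TPM in testis-free controls and 388.9 to 489.6 TPM with Sustanon. The 6 stellate and stromal markers summed to 66.8 to 145.6 and 109.5 to 194.8 TPM, and the 7 hepatocyte markers to 113000 to 167600 and 129900 to 188700 TPM. Of the tested markers, 3 intestinal, 3 bile duct, 7 leukocyte and Kupffer cell, 6 stellate and stromal and 7 hepatocyte, none was called between these groups, where 2.02% of all genes were called lower and 3.37% higher. The hepatocyte marker APOA2, an apolipoprotein, differed by 1.03 ± 0.31 (edgeR adjusted p = 0.0513), and over all pigs it was called higher at 1.06 ± 0.28 (adjusted p = 0.0269). The groups overlapped for every summed level. On Myodin, the hepatocyte sum was 81330 to 119800 TPM in uncastrated boars and 88050 to 174100 TPM in testis-free pigs, and its part in the boar differences was not tested.

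The 3 genes varied together over the libraries, and less so once group means were removed. Pearson's r of log2 CPM over 24 pigs was 0.687 for TINAG with PLB1, 0.768 for TINAG with DUOX1 and 0.619 for PLB1 with DUOX1. These values hold the differences between groups on which the genes were picked. After each group's mean was subtracted, r was 0.376, 0.449 and 0.104. Within the 8 Myodin pigs, r was 0.651, 0.787 and 0.434, values that still hold the difference between uncastrated and testis-free pigs.

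Among 7207 genes with a symbol and a mean log2 CPM of at least 0, those most like TINAG over the 24 pigs included ACAA2 (r = 0.917), MOCOS (0.896), SLC25A42 (0.862) and PLEKHG6 (0.861). ACAA2, a thiolase of mitochondrial fatty acid oxidation, had a median of 1029 CPM in testis-free controls, 174.9 with Sustanon and 772.3 with Myodin. In Myodin pigs alone its r with TINAG was 0.896, and after subtraction of group means 0.676. In uncastrated boars on Myodin, ACAA2 had 841.0, 50.2 and 141.6 CPM. Pig 22 was thus the high one of these boars, as it was for TINAG, DUOX1, DUOX2 and DUOXA2, whereas for PLB1 pig 23 was the highest. Hormone levels of these boars, which were not alike, were not analysed here, and their part in these values was not tested.

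DUOX1 was most like ATP9B (r = 0.880), followed by SMAP2 (0.792), SLC39A8 (0.789), FYB2 (0.777) and DEPTOR (0.771). ATP9B, a phospholipid-transporting ATPase, ran from 36.4 to 43.5 CPM in testis-free controls and from 27.1 to 34.7 CPM with Sustanon, so a gene that differed by -0.45 on the log2 scale tracked one that differed by -3.45. PLB1 had no gene as close, and its nearest were TFAP4 (r = 0.715), WWP2 (0.709), SPTB (0.705), USF2 (0.699) and ATP9B (0.698). All these points share libraries and treatment groups, and the correlations are descriptions over 24 pigs.

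**Figure D4:**
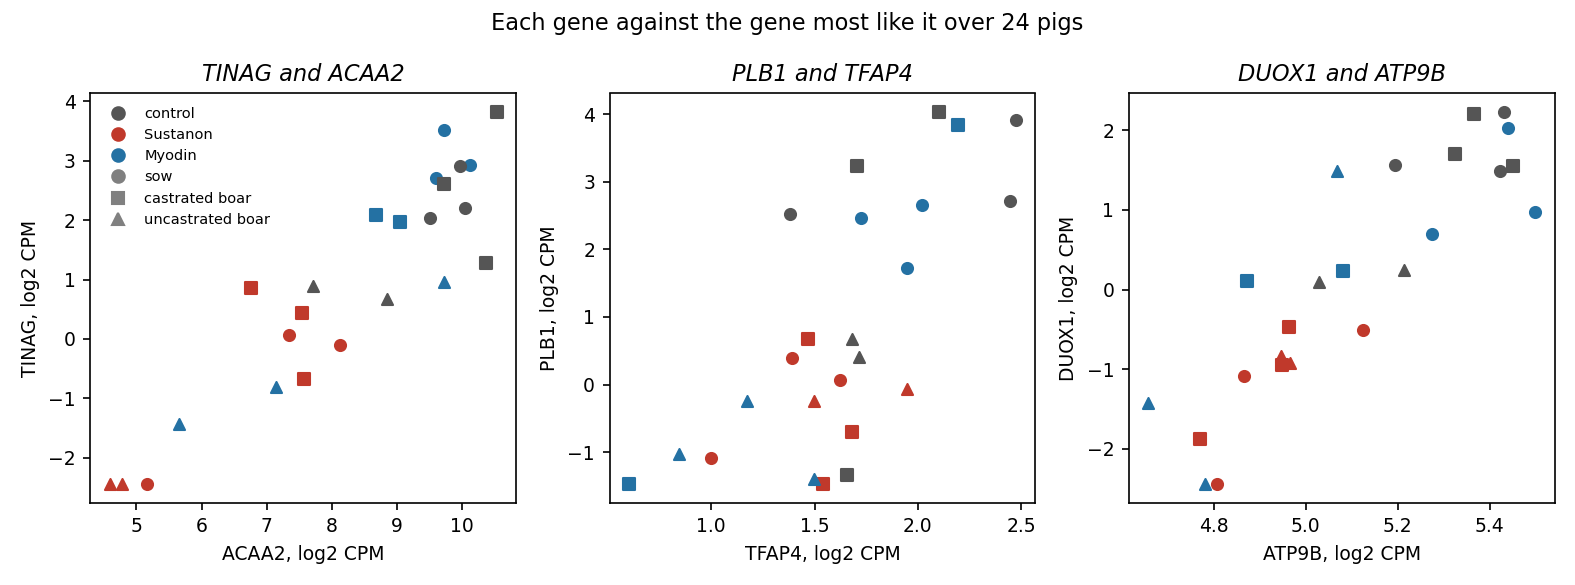
Log2 CPM of TINAG, PLB1 and DUOX1 (vertical) against the gene most like each over 24 pigs (horizontal), which are ACAA2 (r = 0.917), TFAP4 (r = 0.715) and ATP9B (r = 0.880), with colours for treatment and symbols for labelled sex. Sustanon pigs lie toward the lower left in the TINAG and DUOX1 panels, and the PLB1 panel has the widest scatter.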

How the data were processed

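Stranded poly-A libraries were trimmed (Skewer) and aligned (STAR 2.5, within docker4seq) to Sscrofa11.1, per the submitters' processing notes. The authors deposited a table of raw gene counts and a table of log2(TPM + 1) values for the same 24 libraries. The counting tool, its use of strand and its handling of shared reads are not given in the sources used here.

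The 3 genes, the lists and the tests were chosen with earlier results of these data known. Pigs were grouped by their labels. Tests on the counts used edgeR 4.0.16 (R 4.3.3), with filterByExpr over the 6 groups of treatment and testes, TMM normalization, and robust quasi-likelihood tests, two-sided, in a single fit (a fit of the 3 treatments for all pigs). Called genes had a Benjamini-Hochberg adjusted p under 0.05. The SE of an edgeR log2 fold change was derived from its test, as the size of the change divided by the square root of the F statistic. CPM used TMM, and log2 CPM a prior count of 2. TPM levels were recovered from the deposited log2 values by removing the pseudocount of 1. Exact permutation tests enumerated the pigs of single genes, 24 in all, with no adjustment, and for the 3 genes no p is given for boars in control or Sustanon pigs or for comparisons with control, since those pigs served to pick the genes. Named genes were the 3 genes, called list members (up to 8 a list) and the 5 genes with the highest r, of which 1 is not reported here. Neighbours within 500 kb and list members not called, given for context, were chosen after their values were seen.

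Alternatives were DESeq2 1.42.0, RLE normalization, no count filter, limma 3.58.1 on the deposited log2 values, a fit without robust estimation, separate groups for castrated boars and sows, only the groups compared, fits without doubted control libraries, other prior counts, and each pig left out. No 2 libraries were alike: at most 2.78% of tested genes had equal counts. The tests were tried on simulated counts with the same spread for all genes, which does not show how they behave for the picked genes. Depth was 9267780 to 14017276 counts a library, and intervals at 0 reads cover counting error only. Protein and promoter sequences were not used here.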

Additional observations from a re-analysis of the deposited data

Results flagged for a closer look

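PLB1 in control castrated boar 15 stood apart from the other testis-free controls. It had 2 reads (0.212 CPM) where the other 5 pigs had 5.55 to 16.2 CPM, and the gap to the nearest pig was 0.718 of the group's range on the log2 CPM scale, above Dixon's 95% critical value for 6 pigs. Of 12 gene and group pairs examined in this way it was the only one beyond the limit. Chance alone puts about 1 in 20 pairs beyond it, so 1 such pair among 12 is not unusual. TINAG in that pig was also the lowest of the group at 2.23 CPM, while DUOX1, at 3.08 CPM, was above the group's median of 2.93 CPM. The same library had 1 read of the Y-linked gene EIF1AY under a male label. Without it, PLB1 differed by -3.82 ± 0.63 between Sustanon and control testis-free pigs.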

How the results depend on the processing

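No paired analysis was possible because pig numbers are not shared between groups. The direction of the 3 genes for boars against testis-free pigs in control and in Myodin pigs, and for Sustanon against control in testis-free and in all pigs, was the same under all 9 other settings. Boars on Sustanon, and Sustanon or Myodin in uncastrated boars, were not refitted. For boars on Myodin, TINAG was no longer called without the count filter (-2.97, adjusted p 0.0502), with castrated boars and sows as separate groups (-2.78, 0.0551) or with only the groups compared (-2.98, 0.158). Its adjusted p ranged from 0.000797 by DESeq2 to 0.158. PLB1 was called by DESeq2 (-3.90, adjusted p 0.00667), without castrated boar 15 (-3.89, 0.0334) and without control libraries 15, 16 and 18 (-3.88, 0.0395). With 1 library left out, the values ran from -4.45 to -2.54 for TINAG, -4.45 to -3.22 for PLB1 and -4.05 to -0.30 for DUOX1. DUOX1 in control boars, a description, was -1.81 with only the groups compared. For Myodin in testis-free pigs, TINAG was -0.47 without control libraries 15, 16 and 18. With 1 library left out, the difference of the Myodin effects ran from -2.44 to -0.53 for TINAG and from -1.69 to -0.46 for PLB1. For DUOX1 it ran from -2.23 to 1.53, and for PLB1 it was 0.04 by limma, against -1.12.

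By limma on the deposited log2(TPM + 1), whose pseudocount of 1 shrinks low genes, the Sustanon differences in testis-free pigs were -1.69 for TINAG, -1.48 for PLB1 and -0.999 for DUOX1, and over all pigs -1.61, -1.17 and -0.83. Over all pigs TINAG was -4.37 with separate groups, a value that includes boars at 0 reads. DUOXA2 kept its Sustanon call under all 9 settings and its Myodin boar call under 8, the exception being only the groups compared (adjusted p 0.207). In control boars DUOXA2 was called under 2 of 9 settings, DESeq2 (adjusted p 0.0123) and only the groups compared (0.0282), and not under the others (up to 0.153).

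The number of called genes moved more. For boars on Myodin it was 189, and 444 by DESeq2, 116 without the filter, 75 by limma, 122 with separate groups and 0 with only the groups compared. For control boars it was 128, and 250 by DESeq2, 57 without boar 15, 33 without the 3 libraries and 212 with only the groups compared. For Myodin in testis-free pigs it was 8, and 69 by DESeq2, 4 by limma, 3 without boar 15, 0 without the 3 libraries, 5 with separate groups and 18 with only the groups compared. For the difference of the Myodin effects it was 7, and 93 by DESeq2, 13 by limma, 3 without the 3 libraries and 11 with separate groups. For Sustanon in testis-free pigs it was 472, and 301 without boar 15 and 125 without the 3 libraries. Over all pigs it was 408, and 635 by DESeq2, 255 without boar 15 and 0 without the 3 libraries. With 1 library left out, the number for boars on Myodin ran from 1 without uncastrated boar 23 to 771 without uncastrated boar 22, for control boars from 6 without uncastrated boar 27 to 129, and for the difference of the Myodin effects from 2 without uncastrated boar 24 to 187 without uncastrated boar 22. It ran from 3 to 15 for Myodin in testis-free pigs, from 299 without Sustanon sow 5 to 525 for Sustanon in testis-free pigs, and from 189 without uncastrated boar 19 to 593 for all pigs. In an alternative chosen after seeing the data, the 10 named list and neighbour genes called with Sustanon in testis-free pigs, DUOXA2 apart, kept their direction without control libraries 15, 16 and 18, and 1, SORD, was still called. That fit has fewer pigs. The cause was not tested.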

Other observations

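Castrated boar 8 on Myodin had 2 reads of PLB1 (0.178 CPM), against 3.13 to 14.2 CPM in the other 4 testis-free pigs of that treatment, while its TINAG level was 3.74 CPM and its DUOX1 level 0.890 CPM. The same pig had the lowest TFAP4 level of the testis-free Myodin pigs, 1.34 CPM where the group's median was 3.67 CPM. TFAP4 was named for its r with PLB1 over these pigs, so this is a description. In control castrated boar 15 TFAP4 was at 2.97 CPM, above control sow 16 at 2.42 CPM. In controls, castrated boar 15 had as few PLB1 reads with a DUOX1 level of 3.08 CPM. The 2 pigs with almost no PLB1 outside the Sustanon group and the uncastrated boars are therefore both castrated boars by label, and 1 of them goes against that label by its Y-linked reads.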
